A study of Macaca mulatta with 2 samples.

Results

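The genes described here are 40 genes of the piRNA pathway and of meiosis, chosen by name with earlier results of these data known. The rule that matches probes to the names uses no measured value. There are 16 genes of the piRNA pathway, 12 of the synaptonemal complex and cohesin, and 12 of recombination and other meiotic steps. Probes carrying the name were present for 37 of them, among 21495 gene names on the array. No probe was listed under SYCE2, RAD21L1 or MSH5, so those genes are not analysed here.

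Messenger RNA was measured in primary Sertoli cell cultures from rhesus macaque testes, Sertoli cells being the somatic cells that nurse germ cells in the seminiferous tubule. The pubertal culture came from monkeys 18 to 22 months old that had been brought into puberty by gonadotropin-releasing hormone, given through a catheter for 4 to 5 weeks as pulses of 2 min at 0.15 µg/min with 3 h between them. The infant culture came from monkeys younger than 3 months, for which no such treatment is described. Testosterone at 100 nM and follicle-stimulating hormone (FSH) at 5 ng/ml had been added to each culture for 12 h, and no culture without hormone was analysed here. Each group had 1 array, so no difference carries a test, and age, the gonadotropin-releasing hormone pulses, animal and culture cannot be told apart. How many animals contributed to each culture is not stated in the labels.

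PIWI-interacting RNAs (piRNAs) are short RNAs of the germ line that guide PIWI proteins to transposon transcripts and, in some cells, to the transposon's own locus. Tudor domain proteins gather PIWI proteins and their helicases in germ granules. In meiosis, homologous chromosomes are cut, paired and exchanged along a protein axis made of meiotic cohesin and the synaptonemal complex, and most of the genes for this machinery are known for expression in germ cells rather than in Sertoli cells.

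The arrays carried human probes of 60 bases, and the macaque RNA had to hybridise to them across species. Probes of 6 genes are shown because results turn on them: the axis gene with the largest bound, a pair of probes of 1 gene that did not agree, a meiotic cohesin subunit, the meiotic recombinase, and 2 PIWI genes that were not seen. Each has at least 1 reading frame without a stop codon.
SYCP3: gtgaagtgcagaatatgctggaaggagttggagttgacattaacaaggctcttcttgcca
SYCP1 probe 1: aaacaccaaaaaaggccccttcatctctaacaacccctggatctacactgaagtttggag
SYCP1 probe 2: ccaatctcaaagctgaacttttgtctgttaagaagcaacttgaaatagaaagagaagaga
SMC1B: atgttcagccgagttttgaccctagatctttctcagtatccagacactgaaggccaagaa
DMC1 probe 2: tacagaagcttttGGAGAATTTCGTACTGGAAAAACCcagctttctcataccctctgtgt
PIWIL1: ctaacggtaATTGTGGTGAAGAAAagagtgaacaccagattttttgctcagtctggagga
PIWIL3: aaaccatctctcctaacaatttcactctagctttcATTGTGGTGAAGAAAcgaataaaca
In the DMC1 probe the capitals mark the codons of the Walker A motif, the ATP-binding loop shared by recombinases, which 19 of the 50238 gene probes on the array (0.0378%) encode in an open frame. In the PIWIL1 and PIWIL3 probes the capitals mark the longest run of bases that the probes share, 15 bases long. Over all 54 probes of the 37 genes, the longest run shared with a probe of another gene name was 19 bases, counting both strands. The probes that gave signal had a median GC content of 41.7% (37 probes) and those that did not had 40.0% (17 probes), against 41.7% over all gene probes.

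A gene is called seen on an array where the deposited flag put a probe well above background, and a level is the log2 of the signal after division by that array's 75th percentile. Differences are pubertal minus infant, and the median over the 14243 genes seen on both arrays was -0.06. Each difference has an error combined from those that the scanner software assigned to the probe's spots on both arrays. Its median was 0.20, and 0.22 for the genes described here. This error covers the spots only and says nothing of how cultures vary. The median SD between repeat spots of a probe was 0.09 on either array. For a gene seen on the pubertal array only, the fold is given as a lower limit ("at least"). It is taken against the lowest well-measured signal of the infant array (-4.37), or against the gene's own infant signal where that is higher. In the second case, as for SYCP3, SYCE1 and PRDM9, it equals the measured difference and carries the scanner error.

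Of the 37 genes with a probe, 29 (78.4%) were seen on the pubertal array, where the share over all gene names was 70.5%. On the infant array 14 (37.8%) were seen, against 69.5% of all gene names. In such bulk cultures, more cells of a type and more RNA per cell cannot be told apart. None was seen on the infant array alone, where 3.13% of all gene names fell, and 15 (40.5%) were seen on the pubertal array alone, against 4.21% of all gene names. The 14 genes on the infant array were all seen on the pubertal array too, where 66.3% of all gene names were on both. The remaining 8 (21.6%) had no probe well above background. Over the whole array, 15834 of the 21495 gene names were seen on at least 1 array. Among the 14 genes on both arrays, 8 were at least 2-fold higher in the pubertal culture, against 7.32% of all genes on both arrays, and all 8 were also at least 4-fold higher, against 1.67%. None of the 14 was at least 2-fold lower, where 6.32% of all genes were. Those 8 spanned 6.29-fold to 26.2-fold, and 7 of them lay among the 100 largest positive differences on the array. The other 6 genes on both arrays lay between -0.36 and 0.86. Of the 15 genes on the pubertal array alone, 11 were at least 2-fold higher by their bound, against 53.0% of all genes seen there alone, and 8 at least 4-fold, against 20.6%.

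**Figure D1:**
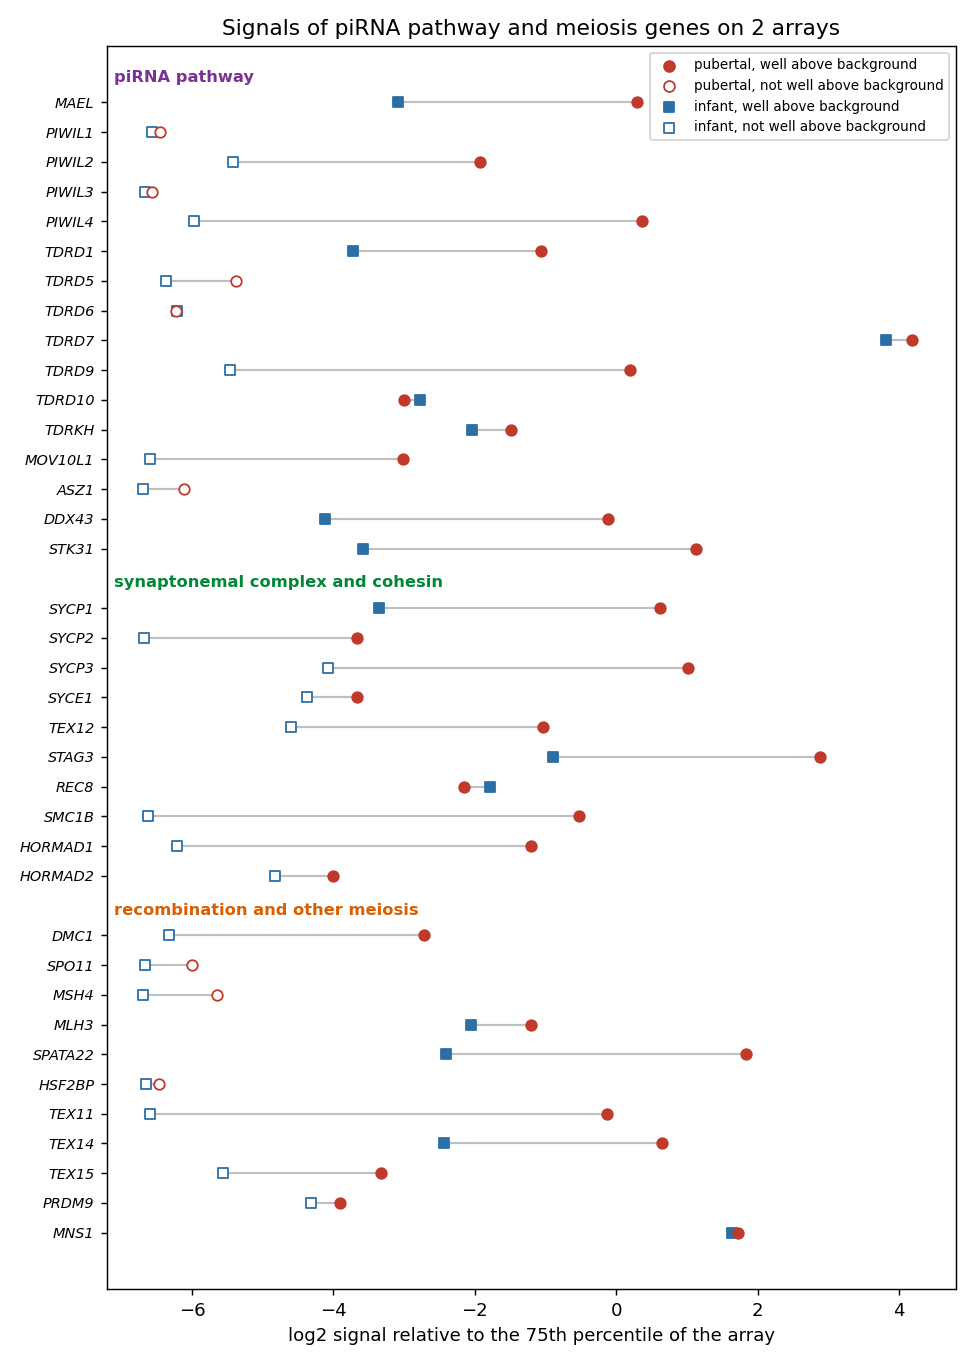
Levels of the 37 genes on the pubertal array (circles) and the infant array (squares), in log2 against the array's 75th percentile, grouped by role; filled symbols were well above background and open symbols were not, and each point is 1 array with no error bar. The circle is filled in 29 rows and the square in 14, and the lines are long for SYCP3, PIWIL4, SMC1B and TEX11 and short for TDRD7, REC8, MNS1 and TDRD10.

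Among the PIWI proteins themselves, 2 of 4 were seen, both on the pubertal array alone. PIWIL4, whose mouse counterpart MIWI2 acts in the nucleus to direct DNA methylation of transposons, had a level of 0.37 in the pubertal culture and -5.97 in the infant culture, where it was not well above background. It was at least 26.7-fold higher in the pubertal culture, on a signal of 526 intensity units against 6.11 in the infant culture. PIWIL2, which cuts transposon transcripts in the amplification cycle that makes piRNAs, had 2 probes with levels of -2.29 and -1.56 in the pubertal culture, against -6.60 and -4.24 in the infant culture. Each probe carried the flag for the pubertal culture only, and their mean gave at least 5.21-fold. PIWIL1, the PIWI protein of meiotic and later male germ cells in the mouse, had -6.45 in the pubertal and -6.57 in the infant culture. PIWIL3, a PIWI gene missing from the mouse and known from oocytes of other mammals, had -6.57 in the pubertal and -6.67 in the infant culture. Neither was well above background, and whether the human probes bind the macaque transcripts was not tested.

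Helicases and granule proteins make and load piRNAs. STK31, a Tudor domain protein with a kinase domain, had 1.13 in the pubertal culture and -3.58 in the infant culture, a difference of 4.71 (26.2-fold, scanner error 0.27) that ranked 12 among the 14243 genes. Its other probe gave no signal above background in either culture. DDX43, a DEAD-box helicase counted among the cancer-testis antigens, had -0.11 in the pubertal and -4.12 in the infant culture (16.1-fold) from 2 probes that overlap by 41 bases and are not independent, and its remaining probe, on the pubertal array alone, gave at least 5.67-fold. MAEL, a granule protein needed for transposon silencing, had 0.29 in the pubertal culture and -3.08 in the infant culture, a 10.3-fold difference with an error of 0.25 in log2. These 3 genes were measured on both arrays, at low levels in the infant culture.

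TDRD9, a helicase with a Tudor domain that works with MIWI2 in the mouse, had 0.19 in the pubertal culture and -5.47, below detection, in the infant culture, and was at least 23.5-fold higher. MOV10L1, the helicase that feeds piRNA precursors into the pathway, was at least 2.55-fold higher by 1 of its 2 probes (-3.02 in the pubertal culture and -6.59 in the infant culture). That probe lay in a disturbed area of the slide, and without such areas MOV10L1 was seen on neither array. ASZ1, which anchors the machinery to mitochondria, was seen on neither.

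The Tudor scaffold proteins were split. TDRD1, which binds PIWI proteins through their methylated arginines, had -1.07 in the pubertal culture and -3.72 in the infant culture by 1 probe, a difference of 2.65 (6.29-fold), while its other 2 probes were not well above background. With the median of all 3 TDRD1 probes the difference was 0.33, and with their mean 0.99. TDRD7 had a difference of only 0.36, with 4.18 in the pubertal and 3.82 in the infant culture, so this granule protein, which is also needed in the lens of the eye, was well measured in both. TDRKH, the Tudor protein of mitochondria that takes part in trimming piRNAs, had differences of -0.07, 0.98 and 0.70 at 3 probes and a mean of 0.54, with a spread between probes (SD 0.54) as large as the mean. TDRD10 differed by -0.23 at 1 probe, with levels of -3.00 in the pubertal and -2.77 in the infant culture, and was at least 8.62-fold higher at the other, which was on the pubertal array alone. Its probes therefore disagree, and no direction is given for the gene. TDRD5 and TDRD6, known in the mouse for the chromatoid body of spermatids, were seen on neither array.

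By count, 11 of 16 piRNA pathway genes were seen in the pubertal culture and 7 in the infant culture, 68.8% and 43.8% against 70.5% and 69.5% of all gene names. Of those 11, 8 were at least 2-fold higher, measured or by bound, where 9.61% of all gene names seen on at least 1 array were.

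All 10 axis genes with a probe were seen on the pubertal array, where the share over all gene names was 70.5%. On the infant array 3 of the 10 were seen, where the share over all gene names was 69.5%. SYCP3, which builds the lateral element of the synaptonemal complex, had 1.02 in the pubertal culture and -4.08 in the infant culture. Its signal was 826 intensity units in the pubertal and 22.5 in the infant culture. The infant value was above the lowest signal seen there but did not carry the flag. The 34.5-fold bound is therefore the measured difference itself (scanner error 0.37 in log2), and the true fold may be smaller. SYCP1, which spans the gap between the paired axes, had 0.62 in the pubertal and -3.35 in the infant culture at its first probe, a 15.6-fold difference seen on both arrays. At the second SYCP1 probe printed above, the levels were -6.18 in the pubertal culture and -6.70 in the infant culture, neither well above background. So 1 probe of the gene gave a strong signal and another none, and which part of that lies in the fit of the human bases to the macaque transcript was not tested.

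The central element holds the paired axes together. TEX12, of the central element, had -1.04 in the pubertal culture against -4.60 in the infant culture, and was at least 10.0-fold higher. SYCE1, its neighbour in that element, had -3.67 in the pubertal and -4.37 in the infant culture, and its bound was 1.62-fold. SYCP2, the partner of SYCP3, had -3.67 in the pubertal culture at 1 of 2 probes and -6.68 in the infant culture, and its bound was also 1.62-fold. The bounds of SYCE1 and SYCP2 are below 2-fold, so neither counts as past it.

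The meiotic cohesin subunits did not move alike. STAG3, the subunit found in every meiotic cohesin, had 2.89 in the pubertal culture and -0.89 in the infant culture, a difference of 3.78 (13.8-fold, error 0.21). Its signal was 3020 intensity units in the pubertal and 206 in the infant culture. STAG3 has near-identical copies in primate genomes, which may share its probe, so its value is uncertain. A probe annotated as similar to STAG3 (LOC442578) was seen on neither array, at -4.32 in the pubertal and -6.26 in the infant culture. SMC1B, the meiotic counterpart of SMC1A, had -0.52 in the pubertal culture and -6.62 in the infant culture and was at least 14.4-fold higher. REC8, the kleisin that replaces RAD21 in meiosis, had -2.15 in the pubertal culture against -1.79 in the infant culture, a difference of -0.36 with an error of 0.22. Of the 3 cohesin genes with a probe, REC8 was the only one not at least 2-fold higher. It stayed below 2-fold under every alternative, although scaling on spike-in probes turned its sign, to 0.64.

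HORMAD1 and HORMAD2 mark axes that have not yet paired. HORMAD1 had -1.20 in the pubertal culture against -6.21 in the infant culture and was at least 9.0-fold higher. HORMAD2 had -4.01 in the pubertal and -4.83 in the infant culture, a bound of 1.28-fold that is close to the detection limit. Of the 10 axis genes, 6 were at least 2-fold higher, measured or by bound, against 9.61% of all gene names seen on at least 1 array.

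**Figure D2:**
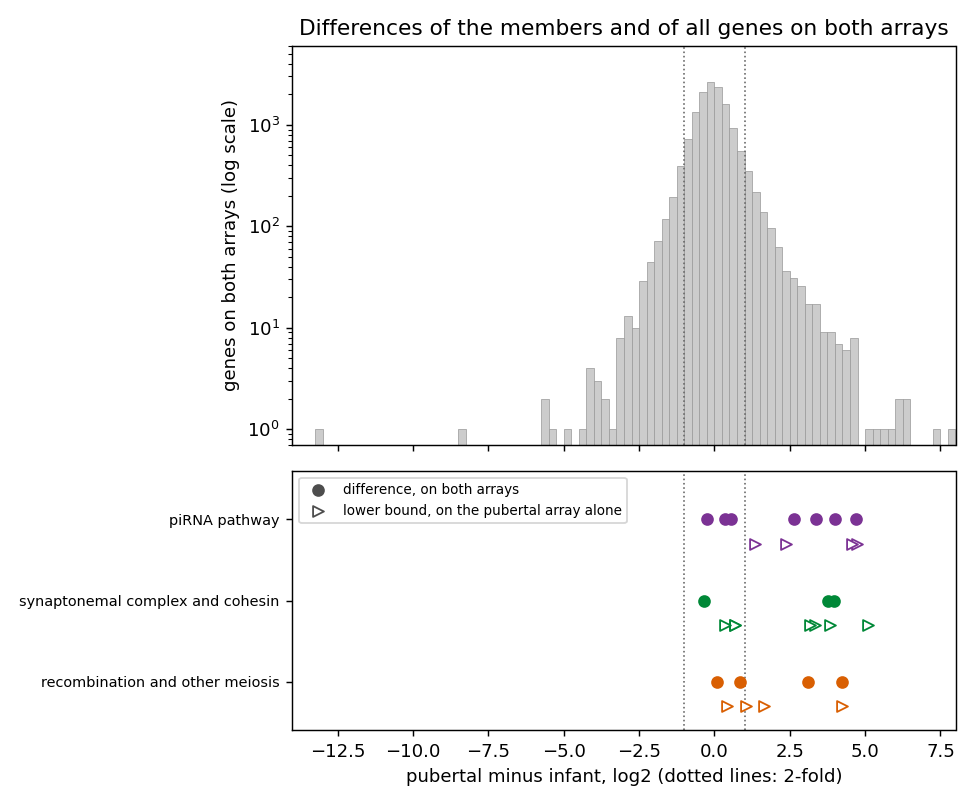
Differences of the genes in log2, pubertal minus infant, below a histogram of the same difference over the 14243 genes seen on both arrays (log scale of gene counts); filled circles are measured differences and open triangles are lower bounds, coloured by role. Measured differences fall in a group from -0.36 to 0.86 and another from 2.65 to 4.71. With the median of all their probes, TDRD1 (0.33) and TDRD10 (2.25) leave the group in which they are drawn.

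Recombination genes repair the programmed breaks of meiosis. SPATA22, which binds single-stranded DNA at meiotic breaks together with MEIOB, had 1.84 in the pubertal culture and -2.41 in the infant culture, a 19.0-fold difference with an error of 0.22 in log2. DMC1, the meiotic recombinase, was on the pubertal array alone at both probes, at -2.91 and -2.54 in the pubertal culture against -5.99 and -6.67 in the infant culture, and was at least 3.13-fold higher. TEX11, an X-linked gene needed for crossovers, had -0.13 in the pubertal and -6.59 in the infant culture and was at least 18.9-fold higher. TEX15, needed for repair of meiotic breaks in the mouse, had -3.33 in the pubertal culture against -5.56 in the infant culture, at least 2.05-fold higher. These 4 genes were higher in the pubertal culture by at least 2-fold, 3 of them by a bound. The bound of TEX15 lies close to 2-fold, and bounds were not compared under other processing.

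The remaining recombination genes start with those that place and make the breaks. PRDM9, which places the breaks, had -3.91 in the pubertal culture against -4.32 in the infant culture at 1 of 3 probes, and its bound was 1.33-fold. SPO11, which cuts the DNA, had -6.00 in the pubertal and -6.67 in the infant culture and was not well above background. MSH4, which stabilises crossover intermediates, and HSF2BP, which acts at the breaks in the mouse, were not well above background either. MLH3, the crossover endonuclease that is also part of mismatch repair, had -1.21 in the pubertal and -2.06 in the infant culture, a difference of 0.86 (1.81-fold) with an error of 0.22.

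TEX14, which keeps the bridges between germ cells open, had 0.65 in the pubertal culture and -2.44 in the infant culture, a difference of 3.09 (8.53-fold). Its second probe was on the pubertal array alone, with a bound of 1.60-fold. MNS1, a protein of cilia and sperm tails, had 1.73 in the pubertal and 1.64 in the infant culture, a difference of 0.08, which is within its error of 0.20. On the infant array 4 of this group of 11 were seen (36.4%, against 69.5% of all gene names). On the pubertal array 8 were seen (72.7%, against 70.5% of all gene names). Of those 8, 5 were at least 2-fold higher, measured or by bound, against 9.61% of all gene names seen on at least 1 array.

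Probes of 1 gene did not always carry the same flags. Of the 12 genes with several probes, 7 had a mix of probes seen and probes not seen. Another 3 had a probe seen on both arrays beside 1 seen on the pubertal array alone, and 2 had probes that behaved alike. Of those 3, DDX43 and TEX14 were higher in the pubertal culture at every probe, while the TDRD10 probes disagreed. No probe of the 54 was seen on the infant array alone. Shares over all genes with several probes, and over all probes, were not computed.

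**Figure D3:**
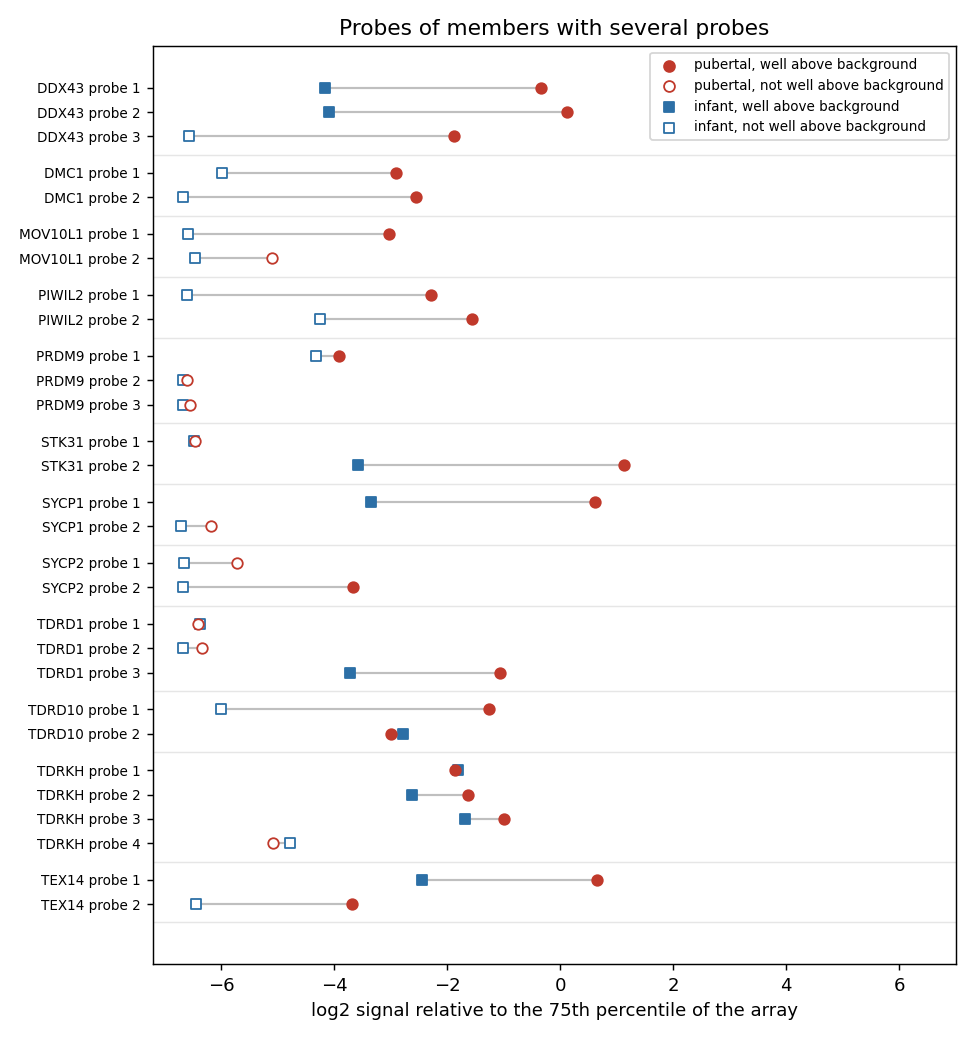
Levels of each probe for the 12 genes with several probes, on the pubertal array (circles) and the infant array (squares), in log2 against the array's 75th percentile; filled symbols were well above background. The second SYCP1 probe and 2 of 3 TDRD1 probes are open on both arrays, while another probe of the same gene is filled on both.

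Related genes outside the set were listed by role, with the set left out. Of 14 other piRNA and germ granule genes on the array, 8 were at least 2-fold higher in the pubertal culture, measured or by bound, where 9.61% of all gene names seen on at least 1 array were. FKBP6, a chaperone partner of the pathway, was on the pubertal array alone and at least 29.7-fold higher. DAZL, an RNA-binding protein of germ cells, was 26.3-fold higher, at 1.38 in the pubertal and -3.33 in the infant culture. ECAT8, an older name of the Tudor helicase TDRD12, was 17.8-fold higher, DDX4, the helicase known as VASA, at least 13.2-fold, and RNF17, a Tudor protein, at least 3.76-fold.

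Of 8 further synaptonemal complex and axis genes, 2 were at least 2-fold higher, CCDC79 (2.40-fold) and CCDC36 (2.29-fold), older names of the telomere protein TERB1 and the break factor IHO1. With normexp background correction neither passed 2-fold, and with the median of all probes or no filter on dim probes 1 did. Of 14 further recombination genes, 5 were at least 2-fold higher, 2 of them by a bound. Among the 5 were HFM1, a crossover helicase (4.21-fold), and C16orf73, an older name of MEIOB (3.76-fold). MEIOB and its partner SPATA22 were thus both past 2-fold. With normexp background correction 2 of this list's genes on both arrays were past 2-fold, instead of 3. Of 16 regulators of meiotic entry and prophase, 7 were at least 2-fold higher, 4 of them by a bound. For each of these lists, the share over all gene names seen on at least 1 array was 9.61%, measured or by bound. AURKC, a meiotic kinase, was at least 26.5-fold higher, and SOHLH1, a transcription factor of spermatogonia, at least 22.9-fold. DMRT1, a transcription factor that both germ and Sertoli cells express, was 4.33-fold higher. STRA8, the switch for meiotic entry, and CCNA1, a cyclin of late spermatocytes, were seen on neither array.

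Ubiquitous paralogs and partners of the set were read in the same way. All 20 were seen on both arrays, and none differed by 2-fold, with a median of -0.07 and a range from -0.74 to 0.97. With quantile normalization or with the percentile over detected probes 1 of the 20 passed 2-fold, and with scaling on spike-in probes, which moved the median of all genes by 1.00, 10 did. SMC1A, the ubiquitous counterpart of SMC1B, differed by -0.26, with 0.73 in the pubertal and 1.00 in the infant culture. STAG1 and STAG2, the counterparts of STAG3, differed by 0.32 and -0.17. MOV10, the counterpart of MOV10L1, differed by 0.71. RAD21, which REC8 replaces, differed by 0.06. The Argonaute gene EIF2C2, now AGO2, differed by -0.74. Differences of 1 probe are set beside those of another here, and levels are not.

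**Figure D4:**
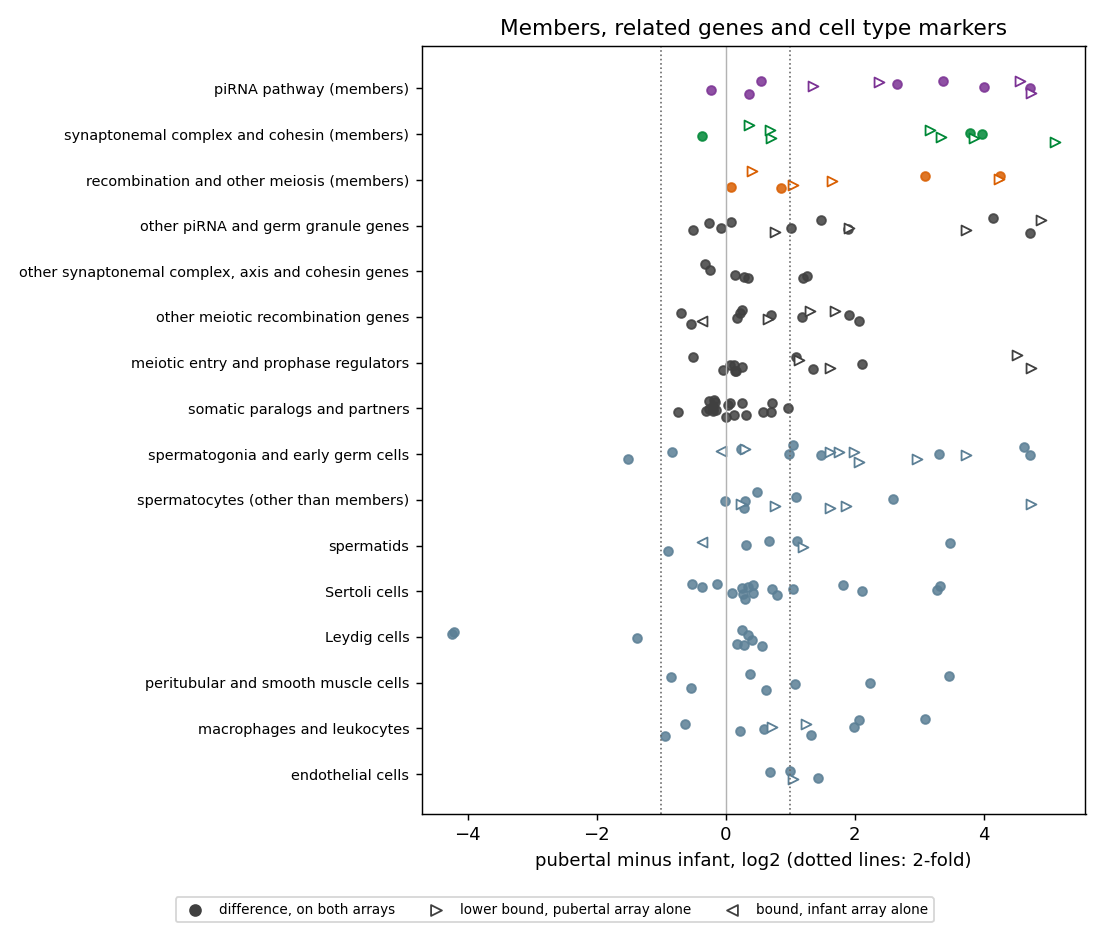
Differences in log2, pubertal minus infant, for the 3 groups of genes described here, for related genes by role, and for cell type markers; filled circles are genes on both arrays and triangles are bounds for genes on 1 array. The 20 ubiquitous paralogs lie between -0.74 and 0.97, while the germ cell lists spread to the right and 3 Leydig markers lie to the left.

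Cell type markers were read beside these values. All 17 Sertoli cell markers were seen on both arrays, WT1 and SOX9 among them at 3.06 and 2.09 in the pubertal culture against 2.96 and 1.67 in the infant culture. Of the 17, 5 were at least 2-fold higher in the pubertal culture and none was 2-fold lower: AMH by 9.69-fold, TF by 9.96-fold, DMRT1 by 4.33-fold, NR0B1 by 3.54-fold and SOX8 by 2.06-fold. With scaling on spike-in probes 14 of the 17 were at least 2-fold higher. The summed signal of the Sertoli list, in multiples of the 75th percentile, was 378.5 in the pubertal and 256.4 in the infant culture.

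Germ cell markers were read from 3 lists, which share genes with each other and with the related lists. BOLL, AURKC, HSPA2, DAZL, DDX4 and NANOS3 are each counted in several lists, so the counts are not separate. Of 21 markers of spermatogonia and early germ cells, 11 were at least 2-fold higher there, measured or by bound, and 1, UCHL1, was 2.86-fold lower, though not by 2-fold with scaling on spike-in probes. FGFR3 was 24.6-fold higher, ID4 9.92-fold, and KIT at least 7.83-fold. In contrast, GFRA1, NANOS2, LIN28 and LIN28B were seen on neither array, DPPA4 was on the infant array alone, and POU5F1 differed by -0.83. The summed signal of this list was 29.0 in the pubertal and 40.3 in the infant culture, most of the infant sum being UCHL1. Of 14 spermatocyte markers outside the set, 5 were at least 2-fold higher, with LDHC, a lactate dehydrogenase of spermatocytes, 6.06-fold higher, and the sums were 36.7 in the pubertal and 25.4 in the infant culture. Most of both sums is PTTG1, which differed by 0.30. Of 21 spermatid markers, 14 were seen on neither array, among them the protamine and transition protein genes PRM1, PRM2, TNP1 and TNP2, and the sums were 11.0 in the pubertal and 8.15 in the infant culture. Of the 21, 3 were at least 2-fold higher, measured or by bound, TEX101 most, at 11.2-fold, while SPACA3 was 1.85-fold lower and ACR was seen on the infant array alone. AKAP4, which makes up most of both sums, had 3.12 in the pubertal and 2.80 in the infant culture.

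Of 10 Leydig markers, 9 were seen on both arrays, and 3 of those were at least 2-fold lower in the pubertal culture, STAR by 18.9-fold, CYP17A1 by 18.5-fold and CYP11A1 by 2.59-fold. The other 6 differed by less than 2-fold, INSL3 by 0.41 and DLK1 by 0.56 among them, and the list's median difference was 0.25. The sums were 74.3 in the pubertal and 174 in the infant culture, most of the infant sum being STAR. Of 7 peritubular markers 3 were at least 2-fold higher, ACTA2 most, at 11.0-fold, while LMOD1 and PDGFRA differed by -0.85 and -0.53. Their sums were 149.7 in the pubertal and 107 in the infant culture. Of 12 macrophage and leukocyte markers 5 were at least 2-fold higher, measured or by bound, with CD163 at 8.49-fold. Among the others, CD68 and CD3E differed by -0.94 and -0.63, and C1QA and LYZ were seen on neither array. The sums of this list were 13.2 in the pubertal and 8.11 in the infant culture. Of 7 endothelial markers 2 were at least 2-fold higher, measured or by bound, with PECAM1 at 2.70-fold, while CDH5, KDR and TIE1 were not well above background. Endothelial sums were 1.82 in the pubertal and 0.828 in the infant culture. The part of other cell types in the differences of the piRNA and meiosis genes was not tested.

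**Figure D5:**
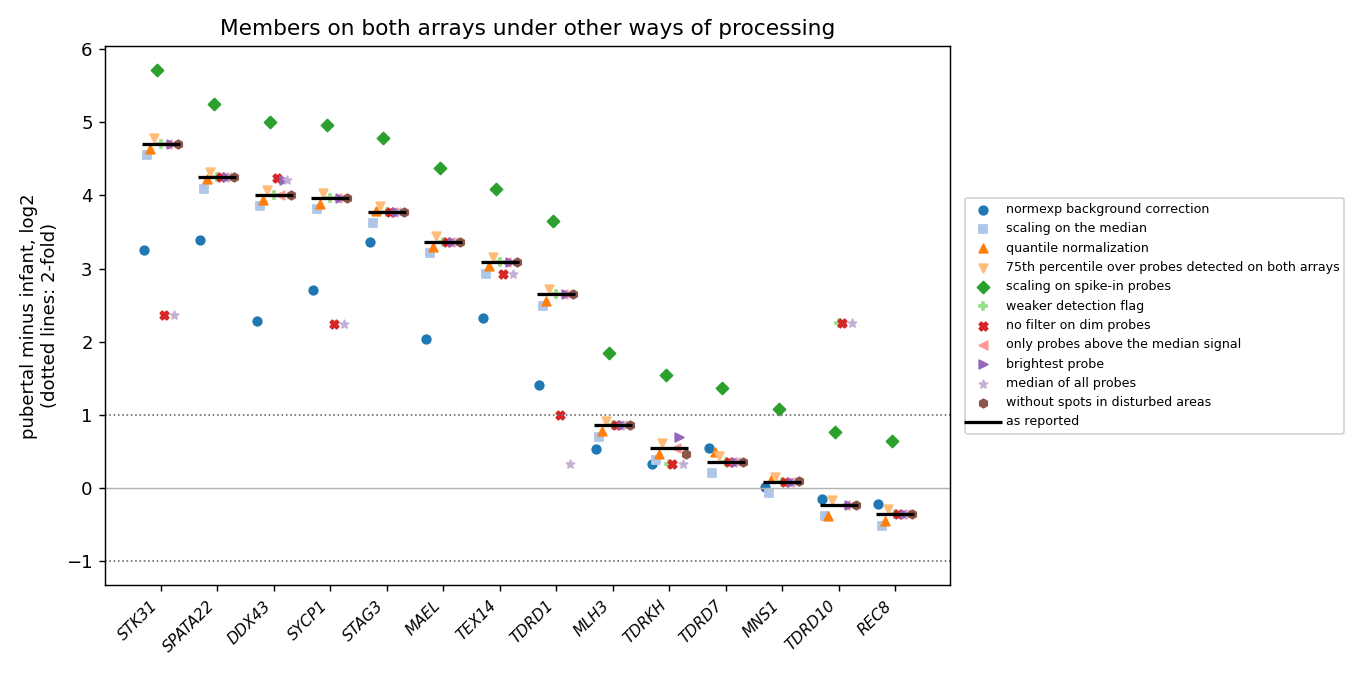
Differences in log2, pubertal minus infant, of the 14 genes seen on both arrays, as reported (black bars) and under 11 other ways of processing (coloured symbols). Of the 8 genes past 2-fold, 7 stay above it throughout and TDRD1 reaches down to 0.33, and spike-in scaling raises all 14.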

How the data were processed

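The members and all lists were chosen with earlier results of these data known. The authors deposited the intensity of each spot from Agilent Feature Extraction 10.5.1.1 (per the submitters' processing notes), with background and spatial trend removed array by array, per the file headers. Flags for background and outliers were used as deposited. The 2 arrays lay on 1 slide with 1 scan, per the file headers. The design is a human one.

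Control spots and outliers (96 pubertal, 91 infant) were left out. The 75th percentile of the processed signal over gene spots (406.7 pubertal, 382.4 infant) was subtracted on the log2 scale. A probe was called seen if 50% or more of its spots carried the flag for signal well above background, as 54.9% of gene spots did in the pubertal and 54.8% in the infant culture. No spot was saturated. Probes seen on both arrays were averaged per gene. For genes on 1 array the bound used the lowest signal seen on the dim array (-4.29 pubertal, -4.37 infant), or the gene's own signal there where higher. The number of arrays limits the precision, and no test was made.

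From each related and marker list, up to 5 genes with the largest difference or bound are named. Other genes named were chosen after their values were seen. All 37 names also occur in the macaque gene tables used here. Python 3.11.15 and R 4.3.3 with limma 3.58.1 (normexp, offset 50) were used. The function for gene differences and bounds was tested on simulated and made-up values, and the counts were not. Alternatives covered background correction, scaling, detection flag, dim probes, probe choice, disturbed areas and the threshold. Limits for disturbed areas (535 spots, 1.01% of the array) came from earlier work on these data.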

Additional observations from a re-analysis of the deposited data

How the results depend on the processing

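Of 154 values of single genes over the alternatives, 116 moved by less than the scanner error, 38 moved by more, and no called value turned its sign. Of the 8 genes past 2-fold, 7 stayed past it under all 11 alternatives that change values, and TDRD1 was under it in 2, at 0.33 with the median of all its probes and 0.99 without a filter on dim probes. Without disturbed areas 28 genes were seen on the pubertal array and 14 on it alone, MOV10L1 being lost. With a weaker detection flag 25 genes were seen on the infant array and on both, where 17022 of all 21495 gene names were on both. Another 8 were seen on the pubertal array alone. Of the 25, 17 were at least 2-fold higher, against 10.0% of all genes, as more genes and more probes per gene entered. The medians of the piRNA and recombination groups were then 3.02 and 2.23. Without a filter on dim probes all 37 genes entered, and 21 were at least 2-fold higher, against 9.68% of all genes. The medians were then 2.23 over all members, 1.62 for piRNA genes, 2.9 for axis genes and 1.05 for recombination genes. As reported they were 2.87, 2.65, 3.78 and 1.97, over the 14 genes on both arrays, of which only 3 are axis genes. Detection counts have no meaning under the 2 other filters on dim probes and were not made. The same 4 medians were 1.72, 1.41, 2.7 and 1.43 with normexp background correction, which adds an offset and so shrinks differences of dim genes. They were 3.87, 3.65, 4.78 and 2.97 with scaling on spike-in probes, where all genes moved by 1.00 and 12 members passed 2-fold, against 45.5% of all genes. With the median of all probes, the first 3 were 2.25, 2.25 and 2.24. At 4-fold 8 genes passed, against 1.67% of all genes. At 1.5-fold 9 passed, for which no share over all genes is given. Of all genes past 2-fold, 53.7% were higher in the pubertal culture, but 37.6% with scaling on the median and 98.1% with spike-in scaling. TDRD10 ranged from -0.39 to 2.25 and MNS1 from -0.07 to 1.08. No paired analysis was possible because each group has 1 array. Dim signals limit the bounds of HORMAD2, PRDM9, SYCE1 and SYCP2. Bounds of genes on the pubertal array alone were not compared between the alternatives.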

Other observations

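Some further genes, whose array names are in no list, were looked up by name or description. They were chosen after their own values had been seen. RP5-821D11.2, annotated on the array as meiosis defective 1 and known in the mouse as a gene needed for meiotic chromosome synapsis, was on the pubertal array alone at 1 of 2 probes, at -0.93 in the pubertal culture against -6.43 in the infant culture, and was at least 10.9-fold higher. MEIG1, a gene of spermatid tail assembly in the mouse, was seen on both arrays, at -0.14 in the pubertal culture and -1.60 in the infant culture, a difference of 1.46. GATS, annotated as the transcription unit opposite to STAG3, had a probe seen on both arrays at -3.18 in the pubertal and -3.18 in the infant culture.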
